A study of Homo sapiens with 21 samples.

Results

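Gene expression in BJ fibroblasts at passage 33 (P33) was compared with that at passage 3 (P3), the last and the first passage of the series. BJ is a line of human skin fibroblasts with a limited replicative lifespan, and the labels name no transgene, immortalising construct or treatment for either group. Each passage had 3 libraries of poly(A)-selected RNA. All 15642 genes that passed a count filter, of 61544 in the deposited table, were taken as members of the comparison. The other 15 libraries of the series are untreated BJ cells at passages P11, P24 and P30, and P11 cells treated with 50 ng/ml of DOX, which the series title spells out as doxorubicin, or with DMSO. They enter below as levels, in comparisons that share no library with P33 against P3 or, where said, in medians against the same P3 libraries. Whether the 3 libraries of a passage came from separate cultures is not said in the labels. The p-values therefore reflect the spread among these libraries alone, and that spread may be technical. BJ is 1 line, and no measure of growth arrest is used here beyond the transcripts themselves.

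Normal human fibroblasts divide a limited number of times in culture. As telomeres shorten, the exposed chromosome ends are read as DNA damage, p53 and the CDK inhibitors p21 and p16 hold the retinoblastoma protein RB active, and E2F-driven genes of DNA replication are switched off. Cells that have stopped in this way are called senescent. They are known for an enlarged shape, a loss of lamin B1, changed chromatin, a secretory programme of cytokines, growth factors and proteases (the senescence-associated secretory phenotype, SASP), and in some settings an interferon response.

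The P3 libraries held 20885657 to 26349740 counts and the P33 libraries 18418398 to 21361274. Reads were seen for 20769 to 21278 genes at P3 and for 23452 to 23627 at P33. Levels are given as CPM, a gene's count relative to its library's total after TMM scaling, with scaling factors of 0.933 to 0.949 at P3 and 1.058 to 1.074 at P33. Values are the mean ± SD of 3 libraries unless single libraries are listed, always in the order of replicates 1 to 3, and a log2 difference (P33 minus P3) is given with its standard error (SE) after ±. Levels are compared between groups and never between genes. A dagger (†) at the first mention of a symbol marks a gene that overlaps another gene on its own strand, as 4989 of the genes tested do; reads in the shared stretch may be missing from its count. The largest axis of variation among the 15 passage libraries held 49.2% of the variance, with P3 at one end and P33 at the other.

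Of the 15642 genes, 11518 (73.6%) differed between P33 and P3 at an adjusted p under 0.05 (edgeR quasi-likelihood test, Benjamini-Hochberg adjustment over all genes). Of these 5900 were higher at P33 (37.7% of genes tested) and 5618 lower (35.9%). With total counts in place of TMM the split moved from 51.2% to 65.2% of calls higher, and the median log2 difference over all genes moved from 0.03 to 0.2151. Where this scaling moved a list's split between higher and lower calls by over 10 percentage points, as in 34 lists, the counts it gave stand in brackets. At least 2-fold rises were seen in 2420 genes (15.5%) and 2-fold falls in 1032 (6.6%). The 3 libraries of one passage did not overlap those of the other in 11771 genes (75.3%). Counts of list members are read below against these shares. Pathways were described through 87 gene lists, in which 2384 of 2770 distinct symbols passed the filter.

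**Figure D1:**
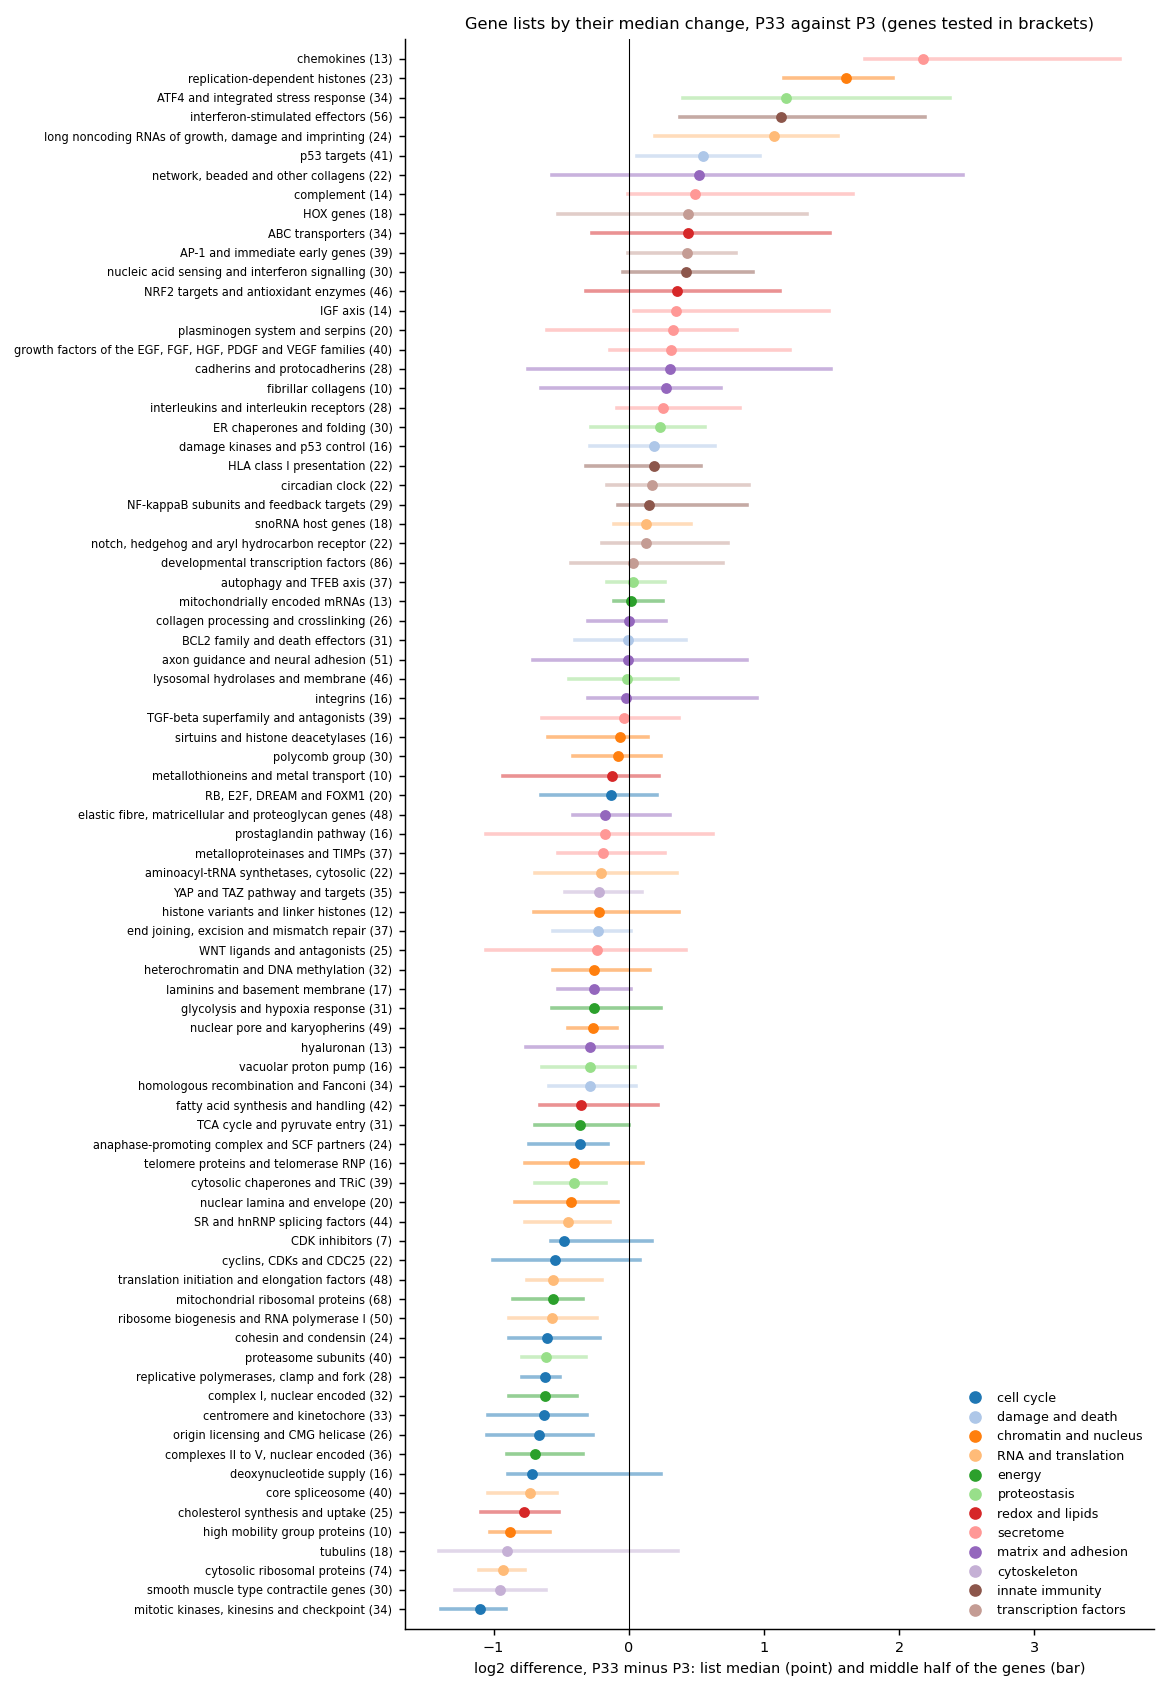
Median log2 difference of P33 minus P3 for each gene list (horizontal axis), as a point, with a bar over the middle of its members (first to last quartile), the number of genes tested in brackets and colours for the section a list belongs to; the vertical line is at 0. Chemokines (median 2.18), replication-dependent histones (1.61), ATF4 genes (1.16) and interferon-stimulated effectors (1.12) lie at the high end, and mitotic genes (-1.10), contractile genes (-0.95) and ribosomal proteins (-0.93) at the low end. Of 25 listed chemokines 12 did not pass the count filter, and of 58 listed replication-dependent histones 35 did not.

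The largest gains in CPM were in IGFBP5, MALAT1†, TIMP3 and RND3, and the largest losses in FN1, ACTB, FLNA and ACTG1, most of which return below. RND3, a small GTPase that opposes contraction, rose from 3039 ± 177 to 4656 ± 282 CPM and FTH1, the ferritin heavy chain that stores iron, from 2232 ± 258 to 3471 ± 98.3 CPM. AHNAK, a giant scaffold protein, fell from 4464 ± 159.5 to 2451 ± 163 CPM and TPM2, a tropomyosin, from 3807 ± 229.8 to 1937 ± 178 CPM.

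The cells were checked against their label by marker genes. Of 15 fibroblast markers 14 passed the filter and their summed level was 21210 to 21940 CPM at P3 and 17000 to 19240 CPM at P33. In this list 5 genes rose and 6 fell, with a median of -0.14 that turns positive with total-count scaling. The collagen gene COL1A1 fell from 4655 ± 98.6 to 2567 ± 382 CPM and the intermediate filament gene VIM from 4417 ± 110.4 to 2427 ± 125 CPM, whereas COL1A2 was at 6038 and 5907 CPM and did not pass the test. The proteoglycan DCN, the protease FAP, the surface protein THY1 and S100A4† fell 1.69-fold, 1.57-fold, 1.32-fold and 1.89-fold, LUM and FBLN1 rose 1.26-fold and 1.43-fold, and the transcription factors PRRX1† and TWIST2 did not pass (-0.07 ± 0.052 and -0.21 ± 0.12). Markers of endothelial, leukocyte, melanocyte and fat cells summed to at most 7.641, 3.235, 1.833 and 1.418 CPM in any P3 or P33 library, with no read of CD3E, TYROBP, AIF1, TYR or SOX10. Epithelial markers summed to 1005 to 1057 CPM at P3 and 446.7 to 495.7 CPM at P33. That sum came mostly from KRT19, DSP, KRT18 and KRT7†, which fell to 186, 159, 52.3 and 30.9 CPM from 368, 315, 192 and 114. The defining epidermal genes KRT5 and KRT1 had no read in the 6 libraries, and EPCAM† stayed under 1 CPM. KRT8 fell 1.79-fold, and KRT10, KRT15† and KRT17 rose 1.58-fold, 1.78-fold and 1.69-fold to 23.5, 5.44 and 7.15 CPM. DSG3 had 2 reads over the P3 libraries and 63 over the P33 libraries, a ratio of 34.8 with a 95% counting interval of 9.23 to 293. The few markers of the other cell types named here that passed the filter were low in both passages: TEK†, EMCN†, PTPRC and CSF1R rose to 4.68, 0.486, 0.717 and 1.78 CPM, and VWF†, CD14, PMEL† and FABP4 did not pass. EMCN did not pass without P3 replicate 1 or 2 or P33 replicate 3 (adjusted p = 0.0503, 0.0514 and 0.0968), nor PTPRC without P3 replicate 2 or 3 (0.0611 and 0.0538). The part of such cells in the results was not tested. In bulk RNA, fewer cells of a type and less RNA per cell cannot be told apart.

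Replication genes were lower at P33 almost throughout. Of 26 genes that license replication origins or form the replicative helicase 22 fell and none rose (2 higher and 17 lower with total counts; median log2 difference -0.66). ORC1, the largest subunit of the origin recognition complex, stood at 7.29, 7.84 and 9.01 CPM at P3 and 4.03, 2.71 and 2.94 CPM at P33. MCM7†, a subunit of the ring that unwinds DNA, stood at 124, 119.6 and 117 CPM at P3 and 45.2, 41.9 and 49.1 CPM at P33. In both genes every P33 library lay below every P3 library, and their log2 differences were -1.30 ± 0.13 and -1.40 ± 0.062 (adjusted p = 5.02e-11 and 9.91e-21). Loading factor MCM10 fell 2.17-fold, and the MCM5 helicase subunit 2.26-fold. Among 28 genes of the replicative polymerases, the sliding clamp and the fork 23 fell and 2 rose (median -0.62). At P30 the medians of these 2 lists against the same P3 libraries were lower still, -1.07 and -0.89. POLD2, the accessory subunit of polymerase delta, fell from 53 ± 6.8 to 17.3 ± 1.4 CPM, its catalytic partner POLD1† from 27.3 ± 2.9 to 12.6 ± 1.3 CPM, and the nick-sealing ligase LIG1 from 58.2 ± 2.7 to 26.9 ± 0.61 CPM.

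Genes of deoxynucleotide supply were divided. Of 16 genes 11 fell and 5 rose. Several enzymes that serve S phase fell: thymidine kinase TK1 stood at 61.3, 69.1 and 64.4 CPM at P3 and 19.1, 17.5 and 16.6 CPM at P33 (3.66-fold lower), and ribonucleotide reductase subunits RRM1 and RRM2 fell 1.68-fold and 1.87-fold. TYMS, which makes thymidylate, fell 1.7-fold, and the thymidylate kinase DTYMK 2.48-fold. DUT, DCTPP1, DCK†, CTPS1 and NT5C also fell, with log2 differences of -0.33, -0.82, -0.89, -0.44 and -1.03. RRM2B, the p53-induced reductase subunit that serves repair and mitochondrial DNA, stood at 96.2, 104 and 98.5 CPM at P3 and 265, 258 and 278 CPM at P33 (2.68-fold higher). The mitochondrial salvage kinases TK2† and DGUOK rose 1.34-fold and 1.28-fold, CMPK1 1.15-fold, and SAMHD1, which breaks down deoxynucleotides and restricts viruses, 1.6-fold.

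Cyclins and their control genes followed the same direction. Of 22 cyclins, CDKs and CDC25 genes 14 fell and 5 rose (median -0.55, and -0.3617 with total counts), with the mitotic cyclins CCNB1 and CCNB2† at -1.49 and -1.29 and cyclin E2 (CCNE2) at -1.12 on the log2 scale. Among the 7 CDK inhibitors 2 rose and 4 fell. CDKN2B, encoding p15, stood at 12.2, 13.5 and 12 CPM at P3 and 44.9, 36.7 and 53.6 CPM at P33 and CDKN1A, encoding p21, at 204, 213 and 202 CPM at P3 and 305, 301 and 303 CPM at P33. At P33 both were above every P3 library. CDKN2A, encoding p16 and ARF, stood at 15.4, 18.2 and 18.3 CPM at P3 and 12.2, 10.9 and 14.2 CPM at P33 and fell 1.39-fold; the counts do not separate its 2 products. CDKN2C and CDKN2D, encoding p18 and p19, fell 1.59-fold and 2.05-fold, CDKN1B, encoding p27, fell 1.39-fold, and CDKN1C, encoding p57, had a log2 difference of -0.21 ± 0.47 that did not pass. In the RB, E2F and DREAM list 6 of 20 genes rose and 9 fell (median -0.13, positive with total-count scaling). E2F7, an E2F member that represses the others and is induced by p53, rose from 33.9 ± 1.7 to 88.2 ± 10.4 CPM, while the mitotic activators MYBL2 and FOXM1 fell 2.25-fold and 2.13-fold.

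All 34 tested genes of mitotic kinases, kinesins and the spindle checkpoint fell, with a median of -1.10. KIF20A, a kinesin needed for cytokinesis, stood at 114, 108 and 117 CPM at P3 and 31.2, 24 and 29.5 CPM at P33, and DLGAP5, which stabilises spindle microtubules, at 127, 132 and 134 CPM at P3 and 43.5, 34.1 and 41.9 CPM at P33. Neither gene's groups overlapped, with log2 differences of -2.00 ± 0.071 and -1.71 ± 0.082 (adjusted p = 6.98e-21 and 1.85e-13). PLK1, the polo-like kinase, fell from 64.7 ± 3.8 to 23.3 ± 0.70 CPM, and the minus-end kinesin KIFC1 from 17.4 ± 0.25 to 5.36 ± 0.40 CPM. These genes made up 0.266% ± 0.0054 of all counts at P3 and 0.14% ± 0.0042 at P33; at P30 they were at 0.09% ± 0.00093. Centromere and kinetochore genes fell in 26 of 33 cases and rose in 2 (median -0.63, and -1.04 at P30 against the same P3 libraries). The NDC80 complex partners SPC25, NUF2 and SPC24 fell 3.7-fold, 2.82-fold and 2.39-fold, but CENPA†, the histone H3 variant of centromeres, rose from 12.8 ± 1.4 to 16 ± 1.3 CPM. Cohesin and condensin genes fell in 20 of 24 (4 higher and 15 lower with total counts), with the condensin subunits SMC2, NCAPD2†, NCAPG2 and NCAPH at -0.96, -1.12, -1.18 and -1.18 (log2). Of 24 genes of the anaphase-promoting complex and its partners 18 fell (6 higher and 14 lower with total counts), led by the activator CDC20 (-1.89) and the subunit ANAPC15 (-1.75).

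Mitotic genes are known to share a promoter element, the cell cycle homology region (CHR, letters TTTGAA), bound by the DREAM and MuvB complexes, often beside CCAAT boxes. RefSeq promoter sequences (GRCh38.p14, 250 bases before each start) were at hand for 28 of the 34 tested mitotic genes. On either strand 16 (57.1%) held TTTGAA and 23 (82.1%) CCAAT, against 13.6% and 33% of all 27305 promoters of this length and 8.77% and 34.7% of those of tested genes. CCAAT was also found in 14 of 18 promoters (77.8%) of the cholesterol synthesis and uptake list. A match of 6 letters is a description of the window and not a bound site. The 90-base windows shown are around the matches of DLGAP5, ASPM† and KIF4A†, which fell by 3.28-fold, 3.07-fold and 2.87-fold. These 3 genes were taken among those with a match. KIF20A, which fell more than all 3, and KIFC1, which fell more than ASPM and KIF4A, had no match in a promoter at hand and were passed over. Capitals mark TTTGAA or its complement TTCAAA, and each window is read 5′ to 3′ on the gene's strand, at chr14:55191647-55191736 (-), chr1:197146735-197146824 (-) and chrX:70290014-70290103 (+).
DLGAP5: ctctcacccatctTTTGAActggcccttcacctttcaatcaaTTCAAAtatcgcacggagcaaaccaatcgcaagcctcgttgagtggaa
ASPM: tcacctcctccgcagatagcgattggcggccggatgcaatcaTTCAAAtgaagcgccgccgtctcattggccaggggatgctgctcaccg
KIF4A: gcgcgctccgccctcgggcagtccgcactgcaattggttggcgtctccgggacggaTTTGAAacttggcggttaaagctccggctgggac

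Among genes called in the whole table the element was not restricted to mitotic genes. Outside the listed mitotic genes, 365 tested promoters held both CHR and CCAAT. Of these 36.4% rose and 42.5% fell at P33, against 35.7% and 39.9% of promoters without both. In the licensing list, the E2F letters TTTNNCGC were found in 7 of 22 promoters (31.8%), against 5.93% of all promoters and 8.73% of those of tested genes. Other elements were found in few promoters of their lists. The letters of a p53 site were in 0 of 29 promoters of p53 targets. They were in only 5 of 11032 promoters of tested genes, too few for the list to be set against them. A sterol element was in 1 of 18 promoters of the cholesterol list (5.56%), against 0.825% of those of tested genes. An antioxidant element was in 6 of 36 promoters of the antioxidant list (16.7%), against 12.3% of those of tested genes.

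Of 34 homologous recombination and Fanconi genes 20 fell and 7 rose (9 higher and 15 lower with total counts). Their median was -0.29, and -0.69 at P30 against the same P3 libraries. The helicase BLM fell from 6.48 ± 0.14 to 3.48 ± 0.35 CPM, while RAD51C and RAD52† rose 1.71-fold and 1.69-fold. In end joining, excision and mismatch repair 20 of 37 fell and 6 rose (13 higher and 15 lower with total counts). XRCC6 and XRCC5, the Ku70 and Ku80 subunits that bind broken ends, stood at 632 and 548 CPM at P3 and at 256 and 329 CPM at P33. PARP1, the break sensor, fell 1.86-fold, and DDB2, the p53-induced sensor of ultraviolet damage, rose 1.83-fold. Of the 16 genes of damage kinases and p53 control 9 rose, 6 fell and ATRIP† did not pass (0.02 ± 0.13). ATM and ATR†, the apical damage kinases, rose 1.22-fold and 1.16-fold, the checkpoint kinase CHEK2 rose 1.44-fold and CHEK1† fell 1.14-fold; without P3 replicate 2 CHEK1 did not pass (adjusted p = 0.0677). Negative regulators of p53 rose, MDM2† 1.96-fold, MDM4 2.36-fold and the phosphatase PPM1D 2.03-fold, and the p53 kinase HIPK2 rose 2.74-fold. RNF168 rose 1.12-fold, but not without P3 replicate 2 or P33 replicate 1 or 2 (adjusted p = 0.336, 0.114 and 0.0543). MDC1, H2AX, RNF8†, WRAP53 and USP7 fell, with log2 differences of -0.68, -0.73, -0.22, -0.60 and -0.50.

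Targets of p53 were higher as a group. Of 41 tested 30 rose and 6 fell (32 higher and 1 lower with total counts; median 0.55). SPATA18, a mitochondrial quality control gene, stood at 89.9, 90.3 and 84.1 CPM at P3 and 214, 213 and 213 CPM at P33. The growth and differentiation factor GDF15† stood at 23.7, 30.8 and 28.1 CPM at P3 and 139, 136 and 159.6 CPM at P33. Both were higher in every P33 library, by 2.42-fold and 5.27-fold. ACER2, a ceramidase, the stress sensor SESN2 and the decoy death receptor TNFRSF10C† rose 3.05-fold, 2.72-fold and 2.47-fold. In the BCL2 family and death effectors 12 of 31 rose and 11 fell (16 higher and 7 lower with total counts). These are 38.7% and 35.5%, near the shares of all genes tested. The killers BCL2L11† (BIM), BBC3† (PUMA) and PMAIP1 (NOXA) rose 5.21-fold, 2.23-fold and 1.73-fold. The inhibitor of apoptosis BIRC3 rose as well, from 1.68 ± 0.19 to 11.9 ± 2.2 CPM, and the pro-death BAD and the executioner caspase CASP6 fell 1.56-fold and 1.6-fold.

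**Figure D2:**
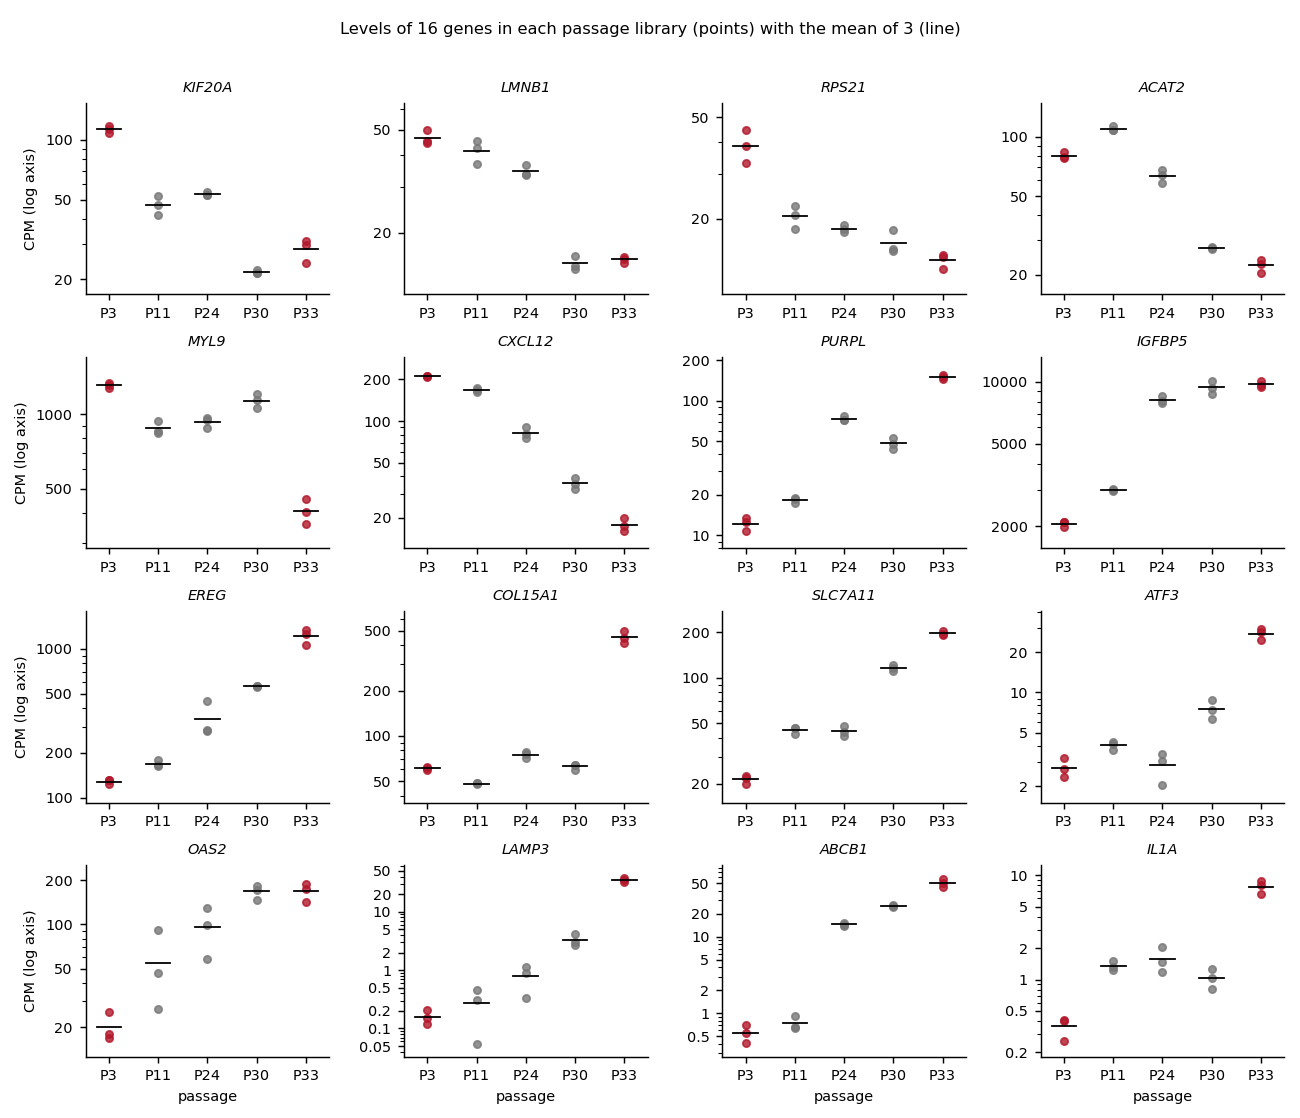
CPM of 16 genes in each of the 15 passage libraries (points, logarithmic vertical axis; P3 and P33 in red, the other passages in grey) with the mean of 3 libraries as a line. KIF20A falls from 113 CPM at P3 to 28.2 CPM at P33, while COL15A1, IL1A and ATF3 have their P33 libraries above all others.

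The nuclear lamina was lower. Of 20 lamina and envelope genes 13 fell and 3 rose (5 higher and 11 lower with total counts). LMNA, encoding lamins A and C, stood at 1693, 1787 and 1758 CPM at P3 and 709, 762 and 687 CPM at P33, and LMNB2† at 265, 245 and 265 CPM at P3 and 116, 115 and 121 CPM at P33. Both were lower in every P33 library, 2.43-fold and 2.2-fold, and LMNB1 fell 2.93-fold, from 46.3 CPM at P3 through 41.5, 34.5 and 15.2 CPM at P11, P24 and P30 to 15.8 CPM at P33. The lamin B receptor LBR fell 1.9-fold, the lamina-associated TMPO 1.75-fold, and the giant nesprin SYNE2†, which ties the nucleus to the cytoskeleton, 2.43-fold. In the nuclear pore and karyopherin list 33 of 49 fell and 3 rose (11 higher and 22 lower with total counts): the transport GTPase RAN fell 1.62-fold, and XPOT, the tRNA exporter, rose 1.82-fold. Of 10 high mobility group genes, whose products bend DNA or loosen nucleosomes, 8 fell. HMGA2† and HMGB3 fell 2.1-fold and 2.27-fold, HMGN2, HMGN3 and HMGN4 2.26-fold, 1.84-fold and 1.81-fold, HMGB1† and HMGB2 1.84-fold and 1.86-fold, and HMGA1† 1.41-fold. HMGN5 rose 1.21-fold, but not without P3 replicate 2 or P33 replicate 1 (adjusted p = 0.213 and 0.0679), and HMGN1 did not pass (-0.08 ± 0.087).

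Replication-dependent histone genes rose. Replication-dependent histone mRNAs normally end in a stem-loop and lack the poly(A) tail that this library type selects, and their genes are near-identical copies, so single values are uncertain. Of 23 tested 22 rose and none fell, with a median of 1.61, and 35 listed genes did not pass the count filter. A gene too low at P3 to pass enters only through a passage where it is higher. The share that rose and the median can therefore be partly set by the filter. H4C8 stood at 8.39, 7.16 and 7.83 CPM at P3 and 46.5, 47.3 and 50.6 CPM at P33 and H2BC21 at 6.35, 6.48 and 6.55 CPM at P3 and 34.9, 32.1 and 34.8 CPM at P33. Both lay far apart between the passages, 6.17-fold and 5.26-fold higher at P33. The list of variant and linker histones was divided, 4 of 12 rising and 6 falling. H2AZ1, H2AZ2, MACROH2A1, H3-3A, H3-3B† and the damage-marking H2AX fell, at -0.39, -0.72, -0.55, -0.95, -0.69 and -0.73. Among those that rose were MACROH2A2, the centromeric CENPA and the linker histone H1-2, at 0.51, 0.33 and 1.18, and H2AJ and H1-10 did not pass.

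Among 32 genes of heterochromatin and DNA methylation 20 fell and 8 rose (10 higher and 13 lower with total counts). The maintenance methyltransferase DNMT1† fell from 304 ± 20 to 136 ± 3.2 CPM and its guide UHRF1† from 98.6 ± 4.3 to 47.6 ± 2.4 CPM, and the H3K9 methyltransferases SUV39H1 and EHMT2 fell 1.93-fold and 1.86-fold. Polycomb genes were divided, 10 higher and 14 lower of 30 (14 higher and 8 lower with total counts), with a median of -0.08 that turns positive with total-count scaling; CBX7†, a reader of the polycomb mark, rose 1.8-fold. Of the 16 sirtuins and histone deacetylases 3 rose and 8 fell (6 higher and 6 lower with total counts). SIRT6 and SIRT2 fell 1.58-fold and 1.74-fold, HDAC5 and HDAC1 1.91-fold and 1.91-fold, and HDAC2 and HDAC3 1.49-fold and 1.34-fold; SIRT7† and HDAC6 were at -0.27 and -0.20 (HDAC6 did not pass without P33 replicate 2, adjusted p = 0.0539). HDAC9 rose 1.61-fold. HDAC4† rose 1.19-fold but did not pass without P33 replicate 3 (adjusted p = 0.11), and HDAC7† rose 1.09-fold but did not pass without P3 replicate 2 or 3 or P33 replicate 1 or 3 (adjusted p = 0.194, 0.061, 0.0533 and 0.0884). SIRT1, SIRT3, SIRT4, SIRT5 and HDAC11 did not pass, with log2 differences of 0.14, 0.14, 0.17, 0.12 and 0.07.

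At telomeres, 9 of 16 genes fell and 4 rose. Of shelterin, the cap of chromosome ends, TERF1, TERF2† and POT1 did not pass (0.05 ± 0.057, 0.05 ± 0.072 and -0.15 ± 0.081), TINF2 and ACD fell 1.39-fold and 1.5-fold, and TERF2IP rose 1.24-fold. The core of the telomerase RNA particle was lower in all of its 4 proteins: NOP10, NHP2, DKC1† and GAR1 fell 2.3-fold, 2.17-fold, 1.72-fold and 1.7-fold. These 4 also serve ribosomal RNA modification. The telomere replication genes STN1† and CTC1 rose 1.18-fold and 1.23-fold (CTC1 not without P3 replicate 1 or 3 or P33 replicate 3, adjusted p = 0.104, 0.0682 and 0.153), and the assembly factor NAF1 1.24-fold. RTEL1†, WRAP53 and PARN†, for telomere unwinding, trafficking and RNA trimming, fell 1.75-fold, 1.52-fold and 1.26-fold.

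Genes of the translation apparatus were mostly lower at P33. Of 74 cytosolic ribosomal protein genes 70 fell and 1 rose (median -0.93); many have processed pseudogenes, so their counts are uncertain. RPS26 stood at 396, 418 and 392 CPM at P3 and 147, 122 and 121 CPM at P33, and RPS21 at 33, 44.5 and 38.6 CPM at P3 and 14.5, 12.7 and 14.2 CPM at P33. Neither gene's groups overlapped, with log2 differences of -1.63 ± 0.058 and -1.49 ± 0.094. Together these mRNAs made up 3.07% ± 0.13 of counts at P3 and 1.93% ± 0.0065 at P33. Of 48 initiation and elongation factors 38 fell, for example EIF3K (2.42-fold) and EIF5A (2.2-fold). Ribosome biogenesis genes fell in 44 of 50: the box C/D methyltransferase FBL from 48.7 ± 2.2 to 17.9 ± 0.50 CPM, the polymerase I subunit POLR1G from 26.8 ± 2.9 to 11.4 ± 1.0 CPM and the assembly factor RRS1† from 59.6 ± 5.3 to 23.9 ± 1.4 CPM. Charging enzymes were mixed, with 12 of 22 cytosolic tRNA synthetases lower and 8 higher. WARS1, the tryptophan enzyme, which interferon also induces, rose from 136 ± 2.6 to 338 ± 9.0 CPM, and QARS1† and FARSA fell 2-fold and 1.89-fold.

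Ribosomal protein mRNAs are known for a terminal oligopyrimidine tract (TOP), a C followed by at least 4 pyrimidines at the first base, through which growth signals control their translation. Such a tract began at the annotated start in 40 of 59 ribosomal protein genes with a RefSeq promoter (67.8%), against 4.04% of all promoters and 5.27% of those of tested genes. Without ribosomal proteins and translation factors, 529 tested genes with a tract had 27.2% higher and 48.4% lower at P33 (median -0.14), and 10405 genes without one 36.1% and 39.5%. Genes of high level or short span also fell more often, as given below. The genes with and without a tract were not matched for either, and a part of the tract itself was not tested. RPS21, RPS25 and RPS18, taken among genes with a tract, fell 2.8-fold, 2.61-fold and 2.56-fold. The 50 bases around their starts show the tract in capitals, at chr20:62387073-62387122 (+), chr11:119018324-119018373 (-) and chr6:33272045-33272094 (+).
RPS21: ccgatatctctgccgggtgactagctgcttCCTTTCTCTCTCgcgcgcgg
RPS25: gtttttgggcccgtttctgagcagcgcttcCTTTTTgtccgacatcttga
RPS18: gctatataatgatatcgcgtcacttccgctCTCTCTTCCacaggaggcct

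Splicing genes were lower in the same manner. All but 1 of the 40 core spliceosome genes fell (median -0.73). The Sm ring protein SNRPD2 stood at 143, 162 and 158 CPM at P3 and 61.1, 60.6 and 58.2 CPM at P33, with no overlap and a 2.57-fold fall. Its partners SNRPG and SNRPE fell 2.57-fold and 2.45-fold, and the U1 protein SNRPC 2.45-fold. In the SR and hnRNP list 32 of 44 fell and 5 rose: SRSF2†, an exon-defining SR protein, fell from 178 ± 4.5 to 64.3 ± 5.4 CPM, HNRNPM 2.17-fold and CELF2† 2.38-fold, and RBM4† rose 2.69-fold.

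Long noncoding genes stood out from coding ones. Of 2284 tested, 1300 (56.9%) rose and 182 (7.97%) fell, with a median of 0.73, while of 12684 protein-coding genes 34.1% rose and 41.7% fell (median -0.05). Their share of all counts was 0.9619%, 0.9452% and 0.9503% in the P3 libraries and 1.815%, 1.993% and 2.108% in the P33 libraries, and 1.46% to 1.652% at P11, P24 and P30. PURPL, a p53-induced RNA, stood at 12.5, 13.4 and 10.7 CPM at P3 and 144, 154 and 151 CPM at P33. HOTAIR, transcribed from the HOXC cluster, stood at 24.8, 23.5 and 24.2 CPM at P3 and 89, 92.7 and 96.3 CPM at P33, and the imprinted MEG3† at 202, 189.7 and 181 CPM at P3 and 566, 604 and 565 CPM at P33. In these 3 genes no library of one passage reached the other, with rises of 12.2-fold, 3.84-fold and 3.03-fold. PINCR, another p53-induced RNA, had 1 read over the 3 P3 libraries and 485 over the 3 P33 libraries, a ratio of 535 with a 95% counting interval of 95.6 to 21200 (exact binomial, counting error only). MALAT1, a nuclear RNA, rose from 2364 ± 135 to 5883 ± 963 CPM and had the second largest gain in CPM of all genes. LINC01081† and ADAMTS9-AS2 rose 54.4-fold and 33.3-fold. Falls were fewer: DPP4-DT 3.96-fold, AGAP2-AS1 2.66-fold, ZFPM2-AS1† 2.12-fold, CARMN†, a smooth muscle RNA, 2.11-fold, MBNL1-AS1 2.09-fold, LINC00968† 2.07-fold and LINC00632 2.01-fold. Hosts of small nucleolar RNAs rose in 8 of 18 and fell in 3 (10 higher and 2 lower with total counts), with GAS5 at 1.47-fold higher and SNHG6† at 1.48-fold lower. Of these 18 genes 17 overlap another gene on their strand, so the counts of this list are uncertain.

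Other gene classes also differed from the whole. Transcribed unprocessed pseudogenes (244 tested) rose in 60.7% and fell in 11.5%, whereas processed pseudogenes (193) rose in 11.9% and fell in 40.9%; reads of the latter can come from their parent genes, ribosomal proteins among them. The direction moved with level and with gene span. With genes put into 5 equal classes by mean CPM, 46.5% rose and 12.6% fell in the lowest class, and 25.7% rose and 58.8% fell in the highest. Among protein-coding genes in 5 classes by span, the shortest (54 to 9515 bases, introns included) had 22% higher and 53.7% lower, and the longest 43.6% and 33.5%. Zinc finger genes named ZNF on chromosome 19, where they lie in clusters, numbered 194, of which 122 rose and 20 fell (median 0.42), while 201 elsewhere had 78 and 53 (0.12). How far level, span and class share these genes was not tested.

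**Figure D3:**
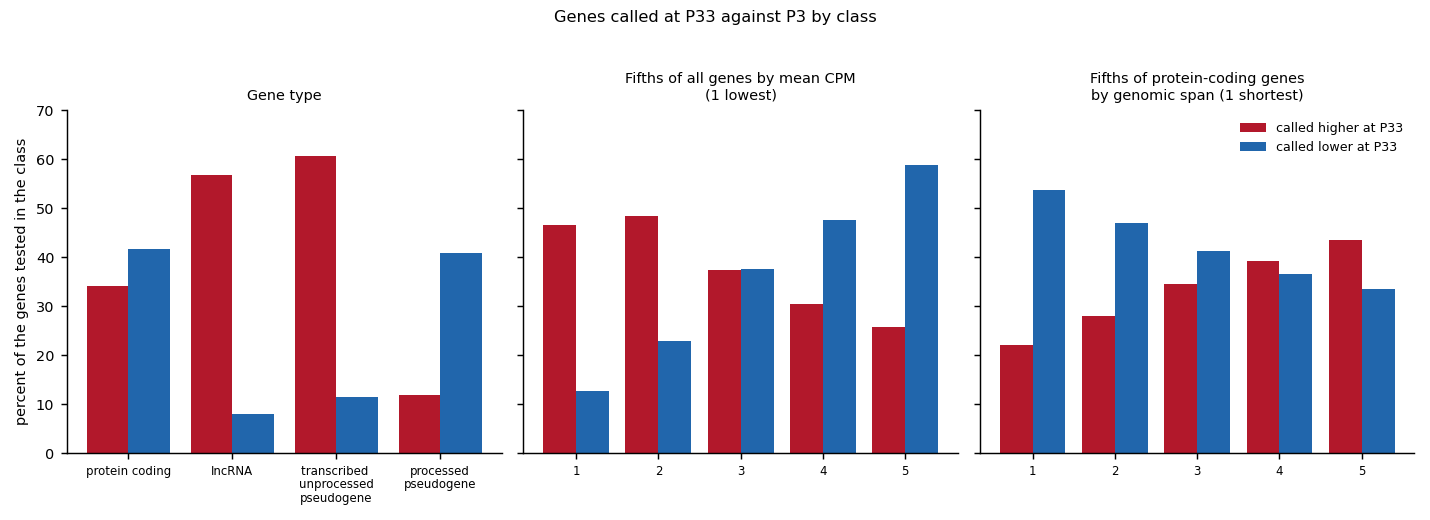
Percent of tested genes called higher (red bars) and lower (blue bars) at P33 for gene types (left panel), 5 classes of mean CPM (middle) and 5 classes of coding gene span (right), numbered from the lowest. Long noncoding genes show 56.9% higher and 7.97% lower, and the share called lower grows from 12.6% in the lowest to 58.8% in the highest class of level.

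Most nuclear genes of the respiratory chain fell. Of 32 nuclear complex I genes 25 fell and 2 rose (median -0.62), and of 36 genes of complexes II to V 30 fell and 1 rose (-0.69). NDUFS5, a complex I subunit, stood at 401, 396 and 400.1 CPM at P3 and 165, 171 and 175 CPM at P33, a fall of 2.34-fold with no overlap. ATP5ME and ATP5F1E, small subunits of ATP synthase, fell 2.4-fold and 2.23-fold, UQCR10 of complex III 2.14-fold and COX7A2 of complex IV 2.08-fold. Mitochondrial ribosomal proteins fell in 62 of 68, for example MRPL41 from 168 ± 46.2 to 58.7 ± 6.5 CPM. The 13 mitochondrially encoded mRNAs had a median of 0.02, with 3 called higher and none lower. MT-ND4† and MT-ND5 rose 1.28-fold and 1.19-fold. Neither passed without P3 replicate 2 (adjusted p = 0.0538 and 0.0813), and MT-ND5 passed neither without P3 replicate 3 nor without P33 replicate 1 or 3 (0.0658, 0.0687 and 0.0643). The third, MT-ATP8†, shares bases with MT-ATP6† and is uncertain: it was at 43 CPM at P3 and at 549.9, 471 and 359.7 CPM at P11, P24 and P30, against 450.4 CPM at P33. The other 10, MT-ND1, MT-ND2, MT-ND3, MT-ND4L†, MT-ND6, MT-CO1, MT-CO2, MT-CO3†, MT-ATP6 and MT-CYB, did not pass and lay between -0.24 and 0.27 (log2). Calls among these depended on the fit. As lower, MT-CO2 passed with the P3 and P33 libraries fitted alone and with the replicate block (adjusted p = 0.000345 and 0.0315, edgeR). MT-CO3 did so with these libraries alone, with all 21 libraries and with the DESeq2 Wald test (adjusted p = 0.000421, 0.0142 and 0.0479). MT-ND1 did so with these libraries alone, with no count filter and without P3 replicate 2 (adjusted p = 0.0162, 0.00993 and 0.00634, edgeR). As higher, MT-CO1 passed with these libraries alone, total counts and a minimum of 10 CPM (adjusted p = 0.0199, 0.00963 and 0.0273, edgeR), MT-CYB with these libraries alone and total counts (0.00504 and 0.0188), and MT-ND4L with total counts (0.0408). All mitochondrial genes together took 5.1% ± 0.14 of counts at P3 and 6.18% ± 0.12 at P33.

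Central carbon metabolism was lower in part. Of 31 genes of the TCA cycle and pyruvate entry 20 fell and 6 rose (8 higher and 16 lower with total counts), with PDHB of pyruvate dehydrogenase at 2.2-fold lower, fumarase FH at 2.02-fold lower, and the NADPH-making malic enzyme ME1 at 2.18-fold higher. Of 31 glycolysis and hypoxia genes 18 fell and 9 rose. PFKP†, a phosphofructokinase, fell from 149 ± 0.82 to 56.8 ± 4.3 CPM and GAPDH from 1589 ± 45 to 838 ± 32 CPM, whereas the regulator PFKFB4† rose from 6.29 ± 0.87 to 24 ± 2.7 CPM and VEGFA, the vascular growth factor, from 60.8 ± 1.7 to 141 ± 8.6 CPM.

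No proteasome gene of 40 rose and 33 fell (4 higher and 30 lower with total counts): the core subunit PSMB1 stood at 213, 201 and 195 CPM at P3 and 84, 84.3 and 87.3 CPM at P33, and the ATPases PSMC1 and PSMC3 of the cap fell 2.19-fold and 2.02-fold. Cytosolic chaperones fell in 27 of 39, with HSP90AB1 at 1.93-fold lower and the TRiC subunits CCT2, CCT3 and CCT5 at 1.96-fold, 1.88-fold and 1.86-fold lower. Endoplasmic reticulum folding genes rose in 16 of 30 and fell in 11. ERN1, encoding the stress sensor IRE1, stood at 11.5, 10.1 and 10.6 CPM at P3 and 55.4, 56.2 and 62.2 CPM at P33 (5.37-fold higher), and its substrate XBP1 and the co-chaperone DNAJB9 rose 1.84-fold and 1.9-fold. MANF and SDF2L1, both folding factors of the same compartment, fell 1.76-fold and 1.9-fold.

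The integrated stress response, in which ATF4 drives amino acid uptake and synthesis, was higher. Of 34 tested genes 30 rose and 1 fell, with a median of 1.16 (0.6732 over the 26 genes that overlap no other on their strand). SLC7A11, the cystine importer, stood at 20, 22.5 and 22 CPM at P3 and 190.3, 193 and 204 CPM at P33. PSAT1, of serine synthesis, stood at 17.4, 16.8 and 16.4 CPM at P3 and 95.8, 101 and 109.8 CPM at P33, and the pseudokinase TRIB3 at 8.47, 8.92 and 9.83 CPM at P3 and 51.4, 57.1 and 69.6 CPM at P33. No P33 library came near the P3 libraries in these genes, whose rises were 9.14-fold, 6.05-fold and 6.55-fold (adjusted p = 1.28e-33, 3.62e-29 and 4.2e-16). The peptide hormone ADM2 rose from 0.87 ± 0.32 to 14.2 ± 0.85 CPM and the transsulfuration enzyme CTH† from 1.26 ± 0.11 to 7.74 ± 0.32 CPM. ATF3, a stress transcription factor induced by ATF4, rose from 2.75 ± 0.47 to 27.4 ± 2.6 CPM. The letters TGATGNAA of the amino acid response element were found in 2 of 29 promoters of the list (6.9%), against 3.19% of all promoters and 1.52% of those of tested genes. One of them is the ATF3 promoter, shown because ATF3 was among the largest rises of the list; capitals mark the match on the gene's strand, at chr1:212565175-212565264 (+), 184 bases before the start.
ATF3: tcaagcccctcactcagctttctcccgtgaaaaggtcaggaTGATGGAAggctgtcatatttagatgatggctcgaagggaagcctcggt

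Autophagy genes rose in 14 of 37 and fell in 11 (22 higher and 8 lower with total counts), 37.8% and 29.7% against 37.7% and 35.9% of all genes tested. The initiating kinase ULK1† was 2.07-fold higher and the conjugation enzymes ATG7 and ATG3 1.52-fold higher and 1.52-fold lower. Lysosomal genes divided into 16 higher and 18 lower of 46 (23 higher and 14 lower with total counts). These are 34.8% and 39.1%, near the shares of all genes tested. LAMP3, a lysosomal membrane protein that interferon also induces, stood at 0.204, 0.12 and 0.154 CPM at P3 and 31.9, 34.9 and 38 CPM at P33, a difference of 7.72 ± 0.23 on the log2 scale with no overlap; it was at 0.272, 0.785 and 3.3 CPM at P11, P24 and P30. Cathepsins CTSS and CTSO rose 2.39-fold and 2.32-fold, the ganglioside activator GM2A 1.98-fold, and the acid lipase LIPA and palmitoyl thioesterase PPT1 fell 2.44-fold and 2.05-fold. Of the 16 proton pump genes 9 fell and 1, ATP6AP2, rose, 1.22-fold (7 higher and 8 lower with total counts). Of the cytosolic V1 part of the pump, ATP6V1B2, ATP6V1C1, ATP6V1D, ATP6V1E1, ATP6V1F and ATP6V1G1 fell, at -1.21, -0.34, -0.67, -0.63, -0.63 and -0.50. Membrane subunits ATP6V0D1, ATP6V0E1† and ATP6V0E2† fell, at -0.87, -0.23 and -1.27, and ATP6V0A1†, ATP6V0A2, ATP6V0B, ATP6V1A, ATP6V1H and ATP6AP1 did not pass.

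Antioxidant genes were more often higher, 26 of 46 against 12 lower. GCLM, which limits glutathione synthesis, stood at 28.8, 27.6 and 25.9 CPM at P3 and 77.9, 80.6 and 85.8 CPM at P33 (2.96-fold higher). The aldose reductase AKR1B1 rose from 266 ± 24.1 to 632 ± 63 CPM and mitochondrial superoxide dismutase SOD2† from 108 ± 4.8 to 248 ± 46.4 CPM. TXNIP, a brake on thioredoxin and glucose uptake, rose from 37 ± 4.2 to 256 ± 24.8 CPM, and the glutathione transferase GSTO1 fell from 300.5 ± 41.8 to 103 ± 7.7 CPM. Of 10 metal handling genes 4 rose and 5 fell (5 higher and 4 lower with total counts; median -0.13, positive with total-count scaling). HEPH, a ferroxidase of iron export, fell from 9.68 ± 0.29 to 0.775 ± 0.17 CPM and the iron exporter SLC40A1 from 4.46 ± 0.10 to 2.17 ± 0.096 CPM, while the zinc and iron importer SLC39A8† rose from 10.4 ± 0.73 to 37 ± 4.5 CPM. The metallothioneins MT1E and MT2A fell 2.51-fold and 1.54-fold, the transferrin receptor TFRC 1.16-fold. SLC39A14 and SLC11A2† rose 1.38-fold and 1.19-fold, and SLC30A1 1.11-fold, the last not without P3 replicate 1 or P33 replicate 1 or 2 (adjusted p = 0.105, 0.069 and 0.0713). SLC39A6† did not pass (-0.03 ± 0.044).

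Cholesterol synthesis was lower. None of 25 genes of synthesis and uptake rose and 21 fell (median -0.77). ACAT2, which makes the first intermediate of the pathway, stood at 77.7, 83.2 and 79.2 CPM at P3 and 22.7, 20.4 and 23.7 CPM at P33, and INSIG1, the sterol-regulated brake of the pathway, at 129, 127 and 134 CPM at P3 and 57.8, 43.6 and 51.1 CPM at P33. Both fell without overlap, 3.59-fold and 2.56-fold. MVK, MVD and NSDHL, later enzymes in order, fell 2.16-fold, 2.14-fold and 2.24-fold. The list was not low at all passages before P33: its medians against P3 were 0.45 at P11, 0.01 at P24 and -0.73 at P30, comparisons that share the P3 libraries. Fatty acid genes fell in 23 of 42 and rose in 11: the desaturases SCD and FADS2† fell 2.1-fold and 2.37-fold, the binding protein FABP3 from 26.4 ± 0.72 to 6.16 ± 0.82 CPM, and the scavenger receptor CD36 rose from 4.87 ± 0.35 to 17.4 ± 0.78 CPM. Of 34 ABC transporters 18 rose and 10 fell. ABCB1, the multidrug efflux pump, stood at 0.692, 0.56 and 0.409 CPM at P3 and 44.9, 56.3 and 49.9 CPM at P33, 88.2-fold higher, and was at 0.738, 14.5 and 24.9 CPM at P11, P24 and P30. Its neighbour in the family ABCB4 rose 3.6-fold, and ABCC9† 2.48-fold.

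Most chemokine genes tested rose at P33. Of 25 listed chemokines 12 did not pass the count filter. Of the 13 tested 10 rose, 2 fell and CXCL5 did not pass the test. The median was 2.18, and 3.388 without P3 replicate 2. A gene near 0 CPM at P3 passes the filter only through a passage where it is higher. The share that rose and the median are therefore partly set by the filter. CCL2, which draws monocytes, stood at 47.7, 48.1 and 51.9 CPM at P3 and 186, 139 and 169 CPM at P33, and CXCL1, which draws neutrophils, at 2.4, 3.8 and 3.79 CPM at P3 and 12.8, 8.78 and 15.3 CPM at P33. CXCL8 stood at 0.448, 0.36 and 0.512 CPM at P3 and 5.18, 4.04 and 6.58 CPM at P33 and CXCL2 at 0.285, 0.28 and 0.358 CPM at P3 and 4.65, 2.66 and 4.2 CPM at P33. These genes were higher in every P33 library, by 3.35-fold, 3.71-fold, 11.9-fold and 12.4-fold. CXCL3, CXCL11†, CXCL14 and CXCL16 rose to 1.25, 0.793, 1.26 and 2.94 CPM from 0.148, 0.0536, 0.258 and 0.683 CPM. CCL5 and CXCL10 had no read at P3 and 119 and 52 reads over the 3 P33 libraries, at least 43.8-fold and 19.1-fold higher against a floor of 3 counts over the group (0.0434 CPM); with these 2 at their bounds the list's median stayed at 2.18. CXCL12, a stromal chemokine that holds leukocytes and stem cells in place, stood at 207, 212 and 213 CPM at P3 and 20.1, 16.1 and 17.5 CPM at P33, a fall of 11.7-fold, after 167, 82 and 35.4 CPM at P11, P24 and P30. The mucosal chemokine CCL28 fell 2.13-fold.

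Interleukin genes rose in 14 of 28 and fell in 5. IL1A, an upstream trigger of the SASP, stood at 0.407, 0.4 and 0.256 CPM at P3 and 8.77, 6.56 and 8.05 CPM at P33, and IL1B at 2.32, 1.52 and 2.61 CPM at P3 and 14.7, 7.4 and 15.5 CPM at P33. Both rose, 21.2-fold and 5.91-fold, and so did the shared receptor chain IL1RAP† (2.66-fold) and LIF (2.63-fold). IL7R, the interleukin-7 receptor chain, fell from 117 ± 3.2 to 22.8 ± 1.9 CPM. Growth factor genes rose in 21 of 40 and fell in 10 (26 higher and 7 lower with total counts). EREG, an EGF receptor ligand, stood at 131, 123 and 131 CPM at P3 and 1260.0, 1066 and 1326 CPM at P33, HGF, a ligand for MET, at 6.15, 8.12 and 8.6 CPM at P3 and 32.7, 27.6 and 36.3 CPM at P33, and FGF2† at 256, 258 and 271 CPM at P3 and 699.5, 645 and 707 CPM at P33. All 3 were higher in each P33 library, by 9.48-fold, 4.24-fold and 2.62-fold. PDGFD and the macrophage factor CSF1 rose 4.28-fold and 2.27-fold, and the receptors PDGFRA† and PDGFRB 1.13-fold and 1.24-fold. PDGFRA did not pass without replicate 1 of P3 or of P33 (adjusted p = 0.074 and 0.0814).

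TGF-beta family genes had no common direction, 14 up and 14 down of 39, with a median of -0.03 that turns positive with total-count scaling and without P33 replicate 1. Each direction held 35.9% of the list, near the shares of all genes tested. INHBA, the activin A subunit, stood at 70.9, 81.4 and 72.7 CPM at P3 and 14.6, 10.7 and 13.9 CPM at P33, and its antagonist FST at 302, 295 and 288 CPM at P3 and 72.3, 63.2 and 79.1 CPM at P33. Ligand and antagonist both fell, 5.71-fold and 4.13-fold. The BMP antagonist GREM1 and the ligands GDF5† and GDF6 fell 3.28-fold, 6.15-fold and 10.4-fold. WNT genes fell in 14 of 25 and rose in 5 (9 higher and 11 lower with total counts), with the receptor FZD1, the antagonist SFRP1† and the nuclear effector TCF7 at -1.06, -0.94 and -1.26 and the ligand WNT2B at 0.42.

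The insulin-like growth factor (IGF) axis was higher in 10 of 14 genes and lower in 3. IGFBP5 had the largest gain in CPM of all genes and stood at 2091, 1993 and 2102 CPM at P3 and 10105, 9425 and 9664 CPM at P33. IGFBP3 stood at 223, 264 and 239.9 CPM at P3 and 734, 654 and 682 CPM at P33, and IGFBP2 at 53.4, 51.2 and 55.8 CPM at P3 and 147, 136 and 139 CPM at P33. Binding proteins hold IGF away from its receptor, and these 3 rose 4.72-fold, 2.85-fold and 2.63-fold. IGFBP7 and IGFBP4 rose 1.4-fold and 1.2-fold, and IGFBP6 fell 1.32-fold. PAPPA and PAPPA2, proteases that cleave binding proteins, rose as well. PAPPA stood at 95.2, 95.9 and 90.7 CPM at P3 and 416, 368 and 401 CPM at P33 and PAPPA2 at 0.244, 0.12 and 0.256 CPM at P3 and 15.9, 18.6 and 21.2 CPM at P33, 4.2-fold and 88.6-fold higher. Of their inhibitors, STC2 rose 1.36-fold and STC1 did not pass (0.00 ± 0.15). The ligand IGF2† fell from 18.3 ± 0.58 to 4.09 ± 0.35 CPM, the receptors IGF1R† and IGF2R† rose 1.16-fold and 1.11-fold, and the protease HTRA1 fell 1.35-fold. The axis took 0.521% ± 0.0044 of counts at P3 and 1.56% ± 0.038 at P33.

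Proteases of the matrix were divided. Of 37 metalloproteinase and TIMP genes 12 rose and 17 fell (15 higher and 11 lower with total counts). MMP1, interstitial collagenase, stood at 1299, 1424 and 1395 CPM at P3 and 313, 258 and 304 CPM at P33, and the inhibitor TIMP3 at 1065, 1009 and 1028 CPM at P3 and 3056, 2885 and 3219 CPM at P33. They moved in opposite directions, MMP1 4.71-fold lower and TIMP3 2.95-fold higher, and the gelatinase MMP2† fell 1.76-fold. In the plasminogen system and serpins 10 of 20 rose and 8 fell. PLAT, tissue plasminogen activator, stood at 99.7, 89.8 and 94.9 CPM at P3 and 1013, 1007 and 1025 CPM at P33, and PLAU, the urokinase, at 83.5, 84.6 and 87.9 CPM at P3 and 199, 170.2 and 229 CPM at P33. Both rose, 10.7-fold and 2.34-fold, and the urokinase receptor PLAUR† fell 2.05-fold. Complement genes rose in 9 of 14. Component C3† rose from 6.14 ± 0.32 to 23.6 ± 5.3 CPM, its receptor C3AR1 from 0.101 ± 0.019 to 1.26 ± 0.23 CPM and the C5a receptor C5AR1 from 0.461 ± 0.20 to 5.61 ± 0.48 CPM. C1S†, C7, CLU†, MASP1, SERPING1 and CD46† rose 1.74-fold, 8.39-fold, 1.47-fold, 1.59-fold, 1.34-fold and 1.2-fold, C5 fell 1.22-fold, and C1R†, C1RL†, CD55 and CD59† did not pass. In the prostaglandin pathway 7 of 16 rose and 8 fell. The inducible cyclooxygenase PTGS2 rose from 132 ± 2.0 to 258 ± 47.6 CPM, PTGS1† and the terminal synthase PTGES fell 1.84-fold and 2.1-fold, and the receptor PTGIR rose 1.42-fold while PTGER3† fell 3.64-fold. The receptors for prostaglandin E2 all fell, PTGER2 from 0.748 ± 0.29 to 0.0962 ± 0.0067 CPM, and PTGER1 and PTGER4 2.3-fold and 2.07-fold, and the prostaglandin F receptor PTGFR† rose 1.3-fold. AKR1C3 and TBXAS1, which make other prostanoids, and the uptake carrier SLCO2A1 rose 3.56-fold, 3.1-fold and 2.99-fold, PLA2G4A, which frees the substrate, 1.24-fold, PTGES2 and PTGES3† fell 1.69-fold and 1.16-fold, and PTGIS did not pass (-0.15 ± 0.099). PLA2G4A did not pass without P3 replicate 2 or 3 or P33 replicate 1 or 3 (adjusted p = 0.0531, 0.0825, 0.0761 and 0.101), nor PTGER1 without P3 replicate 1 or 3 or P33 replicate 3 (0.0987, 0.0964 and 0.0859).

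**Figure D4:**
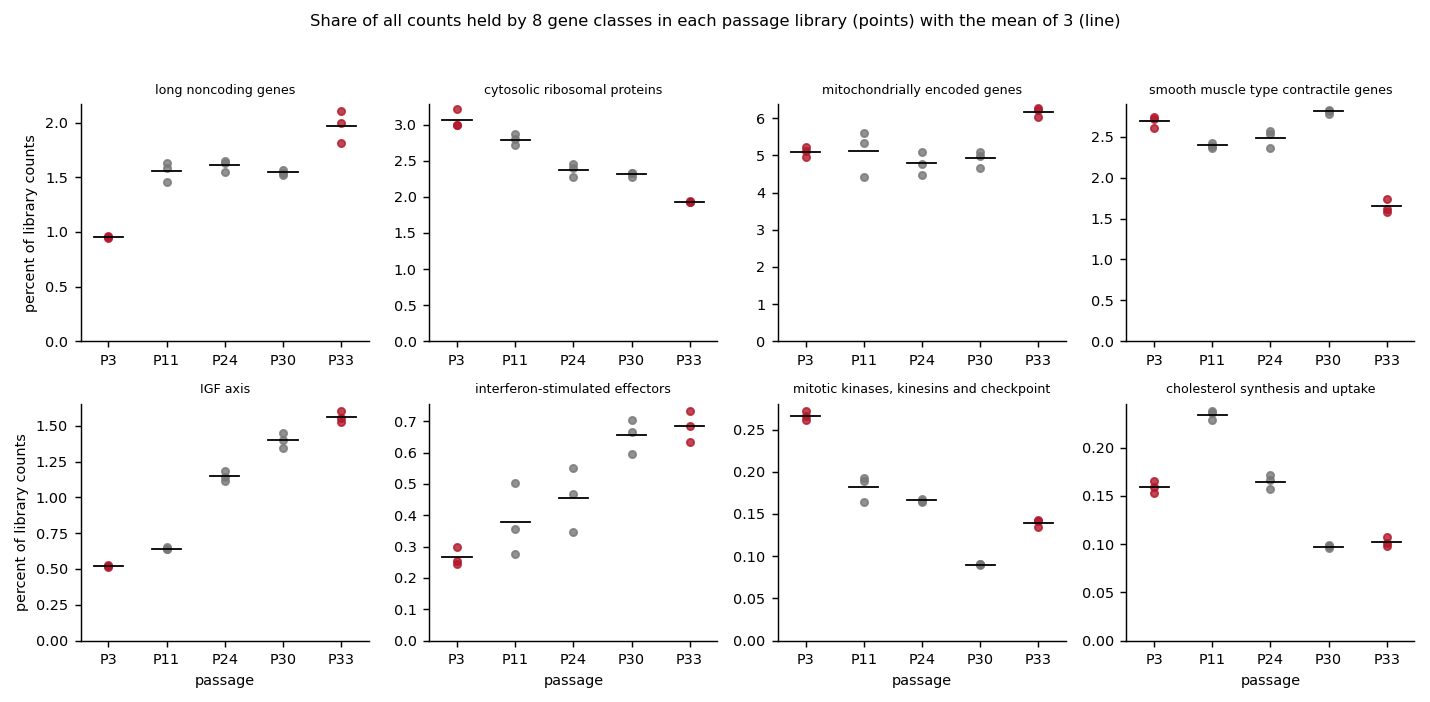
Percent of all counts taken by gene classes in each of the 15 passage libraries (points) with the mean of 3 (line). The IGF axis rises from 0.521% at P3 to 1.56% at P33 and ribosomal proteins fall from 3.07% to 1.93%, while contractile genes are at 2.81% at P30 and 1.65% at P33.

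Of 10 fibrillar collagen genes 6 rose, 3 fell and COL1A2 did not pass. COL11A1†, a minor fibril collagen, stood at 330.3, 328 and 351 CPM at P3 and 77.4, 99 and 77.7 CPM at P33, a fall of 3.97-fold, and COL5A3 fell 2.76-fold. COL3A1†, COL5A1, COL5A2† and COL27A1† rose 1.25-fold, 1.19-fold, 1.24-fold and 1.75-fold, and the low-level COL11A2 and COL24A1† 3.33-fold and 2.22-fold. Network and other collagens rose in 13 of 22 and fell in 7 (median 0.52, and 1.031 over the 16 that overlap no other on their strand). COL15A1, a basement membrane zone collagen, stood at 59.3, 62.2 and 61.4 CPM at P3 and 451, 414 and 502 CPM at P33, and COL8A1, a short-chain network collagen, at 34, 36.3 and 33.4 CPM at P3 and 232, 193 and 188 CPM at P33. These 2 rose 7.47-fold and 5.92-fold; the passages between differed, COL15A1 being at 48.2, 75.2 and 62.7 CPM and COL8A1 at 39.2, 93.8 and 176 CPM at P11, P24 and P30. COL4A5 and COL4A6, adjacent genes of basement membrane collagen, rose from 22.8 ± 0.13 to 104 ± 3.5 CPM and from 1.3 ± 0.11 to 13.4 ± 1.0 CPM, COL7A1† of anchoring fibrils 2.26-fold, and COL6A2 fell 2.32-fold. Of 26 processing genes 10 rose and 11 fell (15 higher and 7 lower with total counts), with the crosslinker LOXL4 at 3.74-fold higher. The split is 38.5% and 42.3%, near the 37.7% and 35.9% of all genes tested.

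Elastic fibre, matricellular and proteoglycan genes fell in 26 of 48 and rose in 14 (19 higher and 17 lower with total counts; median -0.18, positive with total-count scaling). The fibrillin FBN2† fell from 570.5 ± 10.7 to 152 ± 0.42 CPM, the fibril-binding PRELP from 34.1 ± 0.39 to 5.88 ± 0.98 CPM and MFAP5 from 30.6 ± 0.72 to 8.16 ± 0.62 CPM, and the related MFAP4 and the proteoglycan ASPN rose 3.75-fold and 4.92-fold. FN1, encoding fibronectin, had the largest loss in CPM of all genes, from 8685 ± 169 to 4426 ± 284 CPM. Hyaluronan genes fell in 8 of 13 and rose in 2 (4 higher and 6 lower with total counts): the synthase HAS2 fell 2.25-fold and HAS3 rose 2.56-fold, the degrading CEMIP, CEMIP2 and HYAL2† fell 1.7-fold, 1.17-fold and 1.44-fold, the receptors CD44†, HMMR and LYVE1† 1.22-fold, 2.01-fold and 1.45-fold (LYVE1 not without P3 replicate 3, adjusted p = 0.0526), the link protein HAPLN1 fell 2.28-fold, and TNFAIP6†, which modifies hyaluronan in inflammation, rose 2.93-fold. HYAL1, HYAL3† and HAPLN3 did not pass. Laminin and basement membrane genes fell in 11 of 17 (5 higher and 8 lower with total counts), with LAMA5† and LAMA1 3.49-fold and 1.91-fold lower and NTN4 1.75-fold higher. Among 16 integrins 6 rose and 5 fell (37.5% and 31.2%, near the shares of all genes tested). Of the collagen-binding alpha chains, ITGA11 rose from 52.8 ± 1.4 to 248 ± 10.2 CPM, ITGA2 from 133 ± 2.4 to 367 ± 30.8 CPM and ITGA10 from 2.38 ± 0.21 to 9.69 ± 1.5 CPM, and ITGA1† did not pass (-0.01 ± 0.060). Their common partner ITGB1 fell 1.37-fold. ITGA5 and ITGAV, which bind fibronectin and other RGD ligands, fell 1.24-fold and 1.36-fold, as did ITGB5† (1.23-fold) and ITGB8† (1.57-fold); ITGA6, ITGA8 and ITGB7 rose 1.23-fold, 2-fold and 1.91-fold, and ITGA3, ITGA4, ITGA7 and ITGB4 did not pass.

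Cell junction genes held some of the widest differences. Of 28 cadherin, protocadherin and junction genes 14 rose and 12 fell. JAM2†, a junctional adhesion molecule, stood at 0.774, 0.8 and 0.358 CPM at P3 and 32.8, 33 and 32 CPM at P33, PCDH1 at 0.041, 0.04 and 0.205 CPM at P3 and 8.38, 9.51 and 11.2 CPM at P33, and CLDN1, a tight junction claudin, at 4.28, 5.48 and 4.56 CPM at P3 and 36.8, 35.8 and 48.3 CPM at P33. Each was far higher at P33, by 48.6-fold, 104-fold and 8.39-fold. At P3 PCDH1 was close to the floor of 3 counts over a group (0.0434 CPM), so the size of its rise is imprecise. FAT3 and PCDH7 fell 5.56-fold and 4.06-fold.

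The contractile cytoskeleton was lower. None of 30 smooth muscle type contractile genes rose and 27 fell (median -0.95). MYL9, a myosin light chain, stood at 1334, 1319.7 and 1274 CPM at P3 and 401, 454 and 359 CPM at P33, TAGLN† (transgelin) at 735, 716 and 706 CPM at P3 and 244, 278 and 245 CPM at P33, and TPM4, a tropomyosin, at 4323, 4072 and 4693 CPM at P3 and 1452, 1579 and 1491 CPM at P33. No library of one passage entered the range of the other, and the falls were 3.24-fold, 2.81-fold and 2.89-fold. The non-muscle myosin heavy chain MYH9† fell 2.52-fold, the TGF-beta response gene TGFB1I1 2.53-fold and LMOD1 2.46-fold. Cytoplasmic actins, near-identical to each other and to pseudogenes, were among the largest losses in CPM: ACTB fell from 5417 ± 175 to 1733 ± 35.2 CPM and ACTG1 from 4810 ± 75 to 1472 ± 74 CPM. The actin crosslinker FLNA fell from 5430 ± 81.9 to 2016 ± 106 CPM. The contractile list's share of counts was 2.69% ± 0.074 at P3, 2.4% ± 0.031 at P11, 2.49% ± 0.12 at P24, 2.81% ± 0.026 at P30 and 1.65% ± 0.079 at P33. Tubulins fell in 12 of 18 and rose in 5; TUBB, TUBA1B and TUBB6, whose copies are also alike, fell 3.85-fold, 2.66-fold and 2.87-fold. YAP and TAZ pathway genes, which answer to tension, fell in 20 of 35 and rose in 7 (15 higher and 14 lower with total counts), with the partner TEAD4 1.95-fold lower and the targets AXL and AJUBA† 1.67-fold and 1.72-fold lower.

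Interferon-stimulated genes were higher. Of 56 effectors 41 rose and 2 fell, with a median of 1.12. OAS2, an RNA sensor that activates RNase L, stood at 18, 16.8 and 25.4 CPM at P3 and 174, 187 and 142 CPM at P33, and its relative OAS1 at 3.87, 3.72 and 6.3 CPM at P3 and 58.9, 59.5 and 49.6 CPM at P33. IFI44L stood at 7.74, 6.4 and 10.2 CPM at P3 and 123, 134 and 105 CPM at P33 and the antiviral enzyme RSAD2 (viperin) at 1.34, 0.72 and 1.54 CPM at P3 and 22.8, 24 and 17.7 CPM at P33. No P33 library overlapped the P3 libraries, and the rises were 8.43-fold, 12.4-fold, 15-fold and 18.2-fold (adjusted p = 5.51e-05, 2.28e-05, 5.04e-05 and 8.19e-05). Of 30 genes of nucleic acid sensing and interferon signalling 18 rose and 7 fell (22 higher and 4 lower with total counts): the RNA sensor IFIH1 (MDA5) from 30.4 ± 6.6 to 78.4 ± 9.7 CPM, its relative DHX58 from 13.3 ± 1.2 to 32.4 ± 1.3 CPM, TLR3 from 2.74 ± 0.16 to 7.57 ± 0.15 CPM, the kinase EIF2AK2 (PKR) from 138 ± 18.5 to 272 ± 17.3 CPM, the factor IRF1 from 24.4 ± 2.1 to 58.3 ± 2.2 CPM and the feedback protease USP18 from 5.79 ± 0.44 to 16.5 ± 2.2 CPM. The effectors took 0.2452% to 0.2995% of counts in the P3 libraries and 0.6339% to 0.7317% at P33. Between them libraries of 1 passage lay far apart, at 0.2776%, 0.5025% and 0.3554% at P11 and 0.4681%, 0.3479% and 0.552% at P24, and P30 stood at 0.5962%, 0.6655% and 0.703%. HLA class I presentation genes rose in 10 of 22 and fell in 6 (12 higher and 4 lower with total counts), with the light chain B2M from 458 ± 7.4 to 773 ± 9.3 CPM and the checkpoint ligand CD274 from 10.8 ± 0.87 to 18.4 ± 2.6 CPM; the NKG2D ligands divided, ULBP1 rising 3.5-fold and ULBP2 and ULBP3 falling 1.87-fold and 2.66-fold. NF-kappaB genes rose in 14 of 29 and fell in 7 (18 higher and 4 lower with total counts); BIRC3, given above, and the feedback inhibitor NFKBIA, 3.03-fold higher, were among those that rose.

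The interferon-stimulated response element, bound by IRF proteins and the ISGF3 complex, has the letters GAAANNGAAA. It was found on either strand in 26 of 43 effector promoters (60.5%), against 3.07% of all promoters and 2.57% of those of tested genes. In 257 tested promoters with a match outside the list 35.8% rose and 39.7% fell, against 35.3% and 40.6% of those without a match. Windows are shown for genes taken among those with a match. IFI44L, BST2, a protein that tethers budding virions, and HERC5, a ligase for the ubiquitin-like ISG15, rose 15-fold, 7.27-fold and 6.78-fold. BST2 and HERC5 were chosen after their values and promoters were seen. RSAD2, OAS1 and OAS2, which rose more than BST2, had no match in a promoter at hand and were passed over. Capitals mark matches, TTTC forms being the complement, and HERC5's window begins inside a match. They lie at chr1:78620335-78620424 (+), chr19:17405705-17405794 (-) and chr4:88457005-88457094 (+).
IFI44L: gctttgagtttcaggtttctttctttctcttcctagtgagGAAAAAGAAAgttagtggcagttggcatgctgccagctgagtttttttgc
BST2: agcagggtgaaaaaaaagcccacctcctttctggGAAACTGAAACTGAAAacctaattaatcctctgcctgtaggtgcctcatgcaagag
HERC5: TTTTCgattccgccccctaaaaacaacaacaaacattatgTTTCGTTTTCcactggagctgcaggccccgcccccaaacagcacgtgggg

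Immediate early genes were uneven between the P33 libraries. In the AP-1 and immediate early list 23 of 39 rose and 8 fell (29 higher and 4 lower with total counts). FOS stood at 1.34, 1.52 and 2.3 CPM at P3 and 77.6, 8.28 and 28.5 CPM at P33, FOSB at 1.71, 1.76 and 2.1 CPM at P3 and 57.6, 2.51 and 13.1 CPM at P33, and EGR1 at 13.9, 13.5 and 14.8 CPM at P3 and 110.1, 37.4 and 70.7 CPM at P33. FOS, FOSB and EGR1 were highest in P33 replicate 1 and lowest in P33 replicate 2. EGR2† and ETV5† rose 11.1-fold and 1.94-fold.

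Whether the same genes differed elsewhere was read from 2 comparisons that share no library with P33 against P3. At P30 against P11, fitted in the same model, 3714 genes were higher (23.7%) and 3932 lower (25.1%). Of the 5900 genes higher at P33, 2216 (37.6%, and 59.7% of the higher genes of the other comparison) were higher here too and 709 (12%) were lower. Of the 5618 lower genes 2477 (44.1%, and 63% of the other's) were lower and 714 (12.7%) higher. With DOX against DMSO at P11, a separate fit over 14826 genes, 2496 were higher (16.8%) and 2718 lower (18.3%). Among the 13650 genes in both fits, 1370 of 4776 genes higher at P33 (28.7%, and 58.1% of DOX) were higher with DOX and 592 (12.4%) lower, and 1509 of 5435 lower genes (27.8%, and 58.1% of DOX) were lower and 501 (9.22%) higher. The log2 differences of P33 minus P3 correlated across genes at r = 0.559 with those of P30 minus P11 and at 0.332 with those of DOX minus DMSO; genes are not independent, and these are descriptions.

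Lists are given here by their counts and medians in each of these comparisons. Mitotic genes fell in all 34 at P30 against P11 (median -1.12) and in 34 of 35 with DOX (-2.58). Replication-dependent histones rose in 17 of 23 at P30 against P11 (1.21) and in 17 of 18 with DOX (1.76). ATF4 genes rose in 24 of 34 at P30 against P11 (0.45) and 27 of 36 with DOX (0.68). Targets of p53 rose in 18 and fell in 11 of 41 at P30 against P11 (0.02), and rose in 39 of 42 with DOX (0.75). Interferon-stimulated effectors rose in 34 of 56 at P30 against P11 (0.76) but fell in 45 of 56 with DOX (-0.56), where 2 rose. Chemokines rose in 8 and fell in 2 of 13 at P30 against P11 (1.18), and rose in 3 and fell in 4 of 10 with DOX (-0.80). Ribosomal proteins fell in 40 of 74 at P30 against P11 with none higher (-0.18), and had 4 higher and 4 lower of 79 with DOX (-0.02). Contractile genes, of which none rose at P33 against P3, rose in 17 and fell in 9 of 30 at P30 against P11 (0.24), and rose in 9 and fell in 12 of 30 with DOX (-0.04). The difference between the P33 effect and the DOX effect was not tested for these lists, and the DOX and DMSO libraries were counted differently from the passage libraries.

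**Figure D5:**
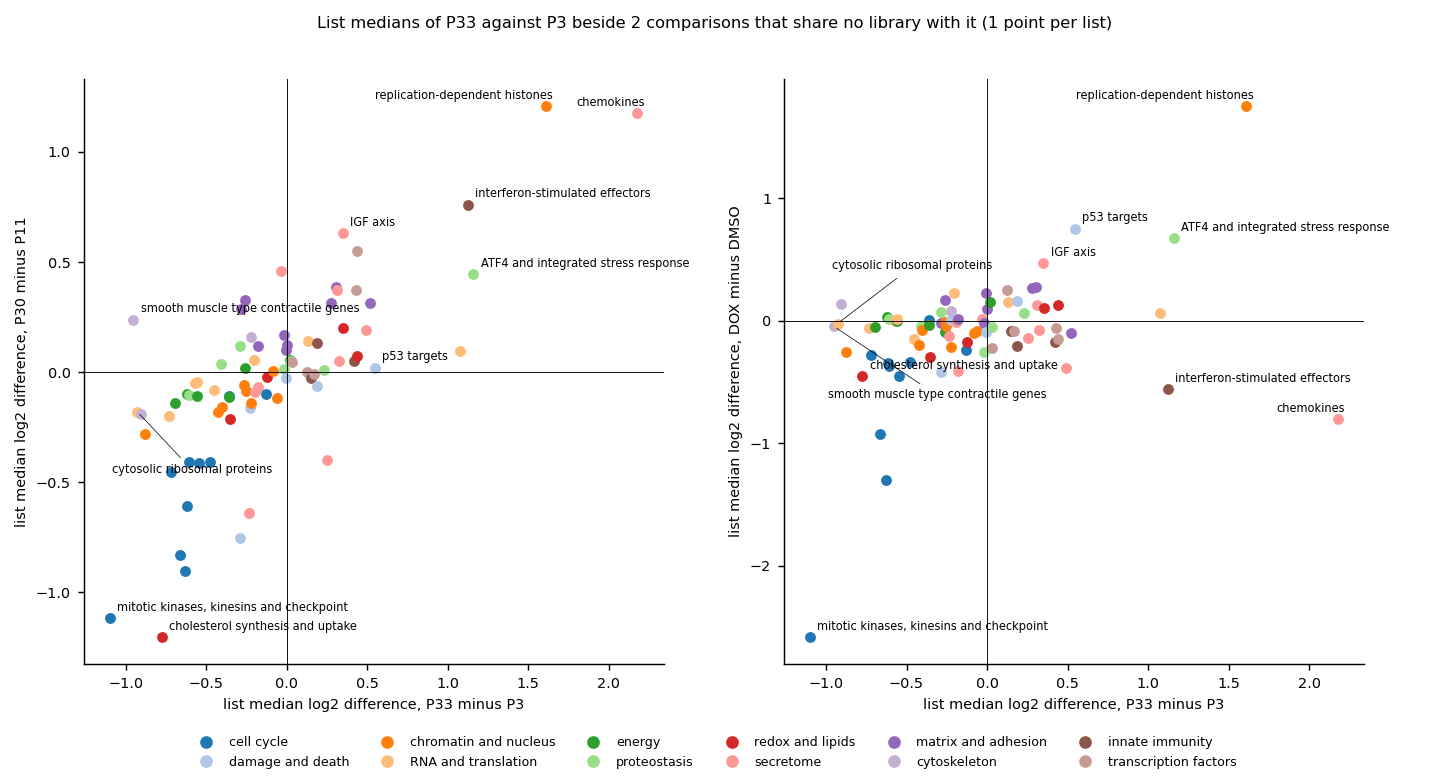
Median log2 difference of each gene list in P33 minus P3 (horizontal axes) against P30 minus P11 (left) and DOX minus DMSO (right), 1 point per list with colours for sections. Mitotic genes are low on all axes, interferon-stimulated effectors are at 0.76 on the left and -0.56 on the right, and contractile genes are at 0.24 on the left.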

How the data were processed

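Poly(A)-selected RNA of BJ cells was sequenced as paired 150-base reads, per the labels' protocols, although the labels also name the molecule as genomic DNA. The deposited values are raw counts per gene, made by the authors before deposit. The submitters' processing notes name HISAT2 2.1.0, Subread 2.0.1 (featureCounts) and the build GRCh38.p13 among other tools, with no role or order. No source used here names a strand setting. Genes wholly inside another gene of their strand numbered 9429; none had reads in the passage libraries and 3950 had some in the libraries given DOX or DMSO, which were therefore fitted apart. No columns of other samples were present (0).

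Genes passed edgeR's filter with a minimum count of 10. The main test was edgeR's quasi-likelihood F-test (edgeR 4.0.16, R 4.3.3, limma 3.58.1) on 15 passage libraries with TMM scaling, 10 residual degrees of freedom and Benjamini-Hochberg adjustment over all genes, with a threshold of 0.05. The biological coefficient of variation was 5.04%. The range of total counts per library in each passage compared is given in the report. The scripts were tested on simulated data. Alternatives were DESeq2 1.42.0, other scalings and filters, a replicate block, other sets of libraries and each library left out. Libraries of P3 or P33 with the same number did not deviate together, so the main fit has no block.

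The members and the gene lists were chosen with earlier results of these data known. Named genes are up to 6 called members of each list with the largest difference and at least 5 CPM, every tested member of lists of at most 16, the 10 largest gains and losses in CPM, the 10 largest rises and falls of long noncoding genes where a symbol exists, and others that complete a complex or a ligand and receptor pair. Some genes that this rule takes in are not reported here, though they stay in the counts of their lists. Marker lists of other cell types used for the label check were those of keratinocytes, endothelial cells, leukocytes, melanocytes and fat cells. Promoter sequences came from RefSeq (GRCh38.p14) and matched 11032 of 15642 genes by symbol. Intervals and floors cover counting error only.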

Additional observations from a re-analysis of the deposited data

How the results depend on the processing

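Of 8 counts of calls, the 4 of P33 against P3 kept within 1.5 times of their values under DESeq2 size factors, no filter, the DESeq2 Wald test, only the P3 and P33 libraries (5792 higher, 5542 lower), all 21 libraries and each left-out library. A minimum of 10 CPM left 9456 genes, with 3815 higher and 3707 lower, 696 and 370 of them 2-fold. Total-count scaling gave 676 genes 2-fold lower. Without genes that overlap on their strand 10628 genes were left, of which 1582 were 2-fold higher. Leaving out 1 library gave 5651 to 5795 genes higher, 5374 to 5515 lower, 2470 to 2586 2-fold higher and 1035 to 1071 2-fold lower. It gave 3374 to 3587 higher and 3590 to 3679 lower at P30 against P11, and 1926 to 2493 and 2241 to 2725 with DOX. Same-numbered libraries of P3 and P33 had deviations correlated at -0.0141, 0.0139 and 0.0173, so the numbers do not pair them; a fit with the replicate block called 5893 genes higher and 5601 lower.

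The median log2 difference of some lists changed sign, all but the HOX genes (0.44) from medians between -0.18 and 0. With the minimum of 10 CPM they were 0.06141 for RB, E2F, DREAM and FOXM1, 0.04526 for polycomb group, 0.1709 for metallothioneins and metal transport, 0.03386 for TGF-beta superfamily and antagonists and 0.03909 for fibroblast identity. With total-count scaling they were 0.05407 for RB, E2F, DREAM and FOXM1, 0.1015 for polycomb group, 0.1216 for sirtuins and histone deacetylases, 0.05981 for metallothioneins and metal transport, 0.1491 for TGF-beta superfamily and antagonists, 0.006149 for prostaglandin pathway, 0.006337 for elastic fibre, matricellular and proteoglycan genes and 0.04421 for fibroblast identity. Without overlapping genes they were 0.001198 for TGF-beta superfamily and antagonists, 0.1165 for prostaglandin pathway and -0.4235 for HOX genes. With single libraries left out the range was from -0.06813 to 0.001349 for TGF-beta superfamily and antagonists. Some lists with a main median within that spread also changed sign and are not all given. With total-count scaling the BCL2 family, lysosomal and collagen processing lists did so, to 0.1801, 0.1691 and 0.1845. The cause was not tested.

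Log2 differences of named genes changed sign only where the gene had not passed the test, 70 values in all. With total-count scaling ATP6V0A2, COL1A2, ITGA1, ITGA4 and SLC39A6 then passed as higher. With the DESeq2 Wald test it was -0.005723 for STC1. With DESeq2 size factors it was -0.004809 for STC1. With all 21 libraries it was -0.00844 for STC1. With the minimum of 10 CPM they were 0.09683 for ATP6V0A2, 0.03148 for CD55, 0.08017 for COL1A2, 0.05548 for H1-10, 0.03121 for HMGN1, 0.1065 for ITGA1, 0.03784 for ITGA3, 0.07839 for ITGA4, 0.002768 for MT-ATP6, 0.09458 for MT-ND2, 0.06273 for MT-ND3, 0.03909 for PRRX1 and 0.08045 for SLC39A6. With no filter they were -0.01184 for ATP6V1A, -0.01653 for ATRIP, -0.01726 for MT-ND4L and -0.03398 for STC1. With the replicate block it was -0.005976 for STC1. With total-count scaling they were 0.1699 for ATP6V0A2, 0.1047 for CD55, 0.153 for COL1A2, 0.128 for H1-10, 0.1049 for HMGN1, 0.1793 for ITGA1, 0.111 for ITGA3, 0.1513 for ITGA4, 0.00976 for ITGA7, 0.07637 for MT-ATP6, 0.02307 for MT-ND1, 0.1682 for MT-ND2, 0.1363 for MT-ND3, 0.03557 for POT1, 0.1122 for PRRX1, 0.03501 for PTGIS and 0.1535 for SLC39A6. Without overlapping genes they were 0.02009 for ATP6V0A2, 0.003648 for COL1A2, 0.00181 for ITGA4 and 0.01742 for MT-ND2. With single libraries left out the range was from -0.04295 to 0.008678 for ATP6V0A2, from -0.02637 to 0.08648 for ATP6V0B, from -0.0004234 to 0.05161 for ATP6V1A, from -0.1155 to 0.1064 for ATRIP, from -0.4022 to 0.03527 for CD59, from -0.557 to 0.06651 for CDKN1C, from -0.0823 to 0.004735 for COL1A2, from -0.6083 to 0.03347 for CXCL5, from -0.1224 to 0.0244 for H1-10, from -0.1057 to 0.2152 for HDAC11, from -0.1638 to 0.04127 for HMGN1, from -0.06131 to 0.034 for ITGA1, from -0.07107 to 0.3192 for ITGB4, from -0.07327 to 0.02194 for MT-ND2, from -0.01544 to 0.08042 for MT-ND4L, from -0.02621 to 0.4379 for MT-ND6, from -0.04649 to 0.276 for SIRT4, from -0.1083 to 0.1568 for STC1, from -0.003294 to 0.1024 for TERF2 and from -0.6747 to 0.06987 for VWF. The cause was not tested.

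Over all settings, 69 values of named genes no longer passed with the direction kept and 52 newly passed. With 1 library left out, calls were gained by C1R (without P33 replicate 1), C1RL (P3 replicate 3), EPCAM (P3 replicate 2), H2AJ (P33 replicate 3), MT-ND1 (P3 replicate 2), POT1 (P3 or P33 replicate 1) and SIRT1 (P3 replicate 3 or P33 replicate 2). List medians, moved by over 1.5 times in 54 of 87 lists with total-count scaling, 36 of 83 with the minimum of 10 CPM, 27 of 86 without overlapping genes and 2 to 11 under each other setting. The split of calls moved by over 10 percentage points in 34, 20 and 12 lists under the first 3 of these and in at most 2 under each other. Depth limits the low genes most: 3 counts over a group are 0.0434 CPM. The 3 libraries of a group limit the precision of each mean, and TMM assumes that most genes do not differ, while 73.6% were called. Counts of genes with copies or overlaps are uncertain, and no cell counts or spike-in values were analysed here.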

Other observations

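Transcription factors of position and development changed in both directions at P33. Of 86 developmental factors 35 were called higher and 28 lower (44 higher and 23 lower with total counts). These are 40.7% and 32.6%, near the 37.7% and 35.9% of all genes tested. TBX4, a factor of hindlimb and lung, stood at 9.86, 11.7 and 10.3 CPM at P3 and 1.02, 1.13 and 1.22 CPM at P33, and LHX9, of limb and gonad, at 7.54, 6.84 and 7.22 CPM at P3 and 0.975, 0.838 and 0.608 CPM at P33. Both fell, 9.45-fold and 8.78-fold, while FOXF1, a mesenchymal forkhead factor, and TFAP2C rose 2.42-fold and 2.4-fold. Of 18 HOX genes 9 rose and 6 fell, with a median of 0.44 over all and -0.4235 once genes overlapping a neighbour on their strand were left out. HOXD10, HOXC10, HOXC11 and HOXA13 rose 3.31-fold, 2.55-fold, 2.22-fold and 1.69-fold, and HOXA7 and HOXA11 fell 2.36-fold and 1.37-fold. Clock genes rose in 13 of 22 and fell in 5 (15 higher and 2 lower with total counts): NPAS2, a partner of BMAL1, rose from 41.6 ± 2.5 to 102 ± 6.6 CPM, RORA from 14.2 ± 0.68 to 29.7 ± 1.2 CPM and NR1D1 from 7.12 ± 0.86 to 13.7 ± 0.26 CPM. The labels give no time of day.

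Genes of axon guidance and neural adhesion divided evenly, 21 higher and 20 lower of 51 (41.2% and 39.2%, near the shares of all genes tested), but held wide single differences. SLITRK6 stood at 0.081, 0.08 and 0 CPM at P3 and 10, 9.76 and 12.8 CPM at P33, and CNTN1 at 0.244, 0.32 and 0.512 CPM at P3 and 10.2, 8.63 and 7.24 CPM at P33, rises of 168-fold and 24.7-fold. At P3 SLITRK6 was close to the floor of 3 counts over a group (0.0434 CPM), so the size of its rise is imprecise. CNTN3 stood at 23.1, 21.8 and 22.8 CPM at P3 and 1.55, 1.23 and 1.47 CPM at P33 and SEMA3F at 19, 20.6 and 21 CPM at P3 and 2.7, 2.07 and 1.42 CPM at P33, falls of 15.8-fold and 9.64-fold. The receptor EPHB6 fell 6.41-fold and the guidance ligand SEMA3E rose 10.3-fold. In the notch, hedgehog and aryl hydrocarbon receptor list 9 of 22 rose and 3 fell (13 higher and 2 lower with total counts), with the notch ligand DLL4 2.01-fold lower and the hedgehog transducer SMO 1.94-fold higher.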
